A study of Drosophila melanogaster with 5 samples.

Results

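The mucin and mucin-related genes of Drosophila melanogaster were followed in prepupal salivary glands. They were taken as every probe set whose only annotated gene symbol is Muc or Mur followed by a digit. The rule gave 19 of the 11982 genes that have a probe set of 1 symbol, 13 named Muc and 6 named Mur. They have 24 of the 18769 probe sets that are not array controls. Muc68Ca and Mur89F have 3 probe sets each and Muc96D has 2, so probe sets of these genes are annotated to the same gene and are not independent. Glands of 3 arrays came from animals carrying P{hs-Fkh111}, a transgene of the forkhead transcription factor gene fkh under a heat-inducible promoter, and glands of 2 arrays from w1118 animals, a white-eyed strain that served as control. Animals of both groups were kept at 25 °C and heat shocked for 30 min at 37 °C, 9.5 h after puparium formation. Their glands were dissected at 14 h. A heat-shock promoter acts in the whole animal, and the larval gland is lost in metamorphosis. The submitters call the samples of a group biological replicates.

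Mucins are secreted or membrane-bound proteins with long stretches rich in serine and threonine. Enzymes of the Golgi attach sugars to these residues, beginning with N-acetylgalactosamine, and the sugars bind water, so that secreted mucins form slimy or gel-like layers. In the larval salivary gland, glue proteins such as Sgs3 have mucin-like regions and are stored in large secretory granules before they are expelled at pupariation. Other insect mucins line the gut or the cuticle. Mur stands for mucin related, and the number and letter in a symbol give the position of the gene on the polytene chromosome map.

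The fkh probe set itself went against the label. It read 41.5, 47.0 and 58.3 with the fkh-expressing label against 130 and 120 in controls (log2 fold -1.13 ± 0.17, SE; limma adjusted p = 0.0026). Whether this probe set lies in the part of fkh carried by the transgene is not known here, so every direction below rests on the labels, and the groups are called the Fkh-labelled arrays and the controls. Median intensities of the arrays lay between 44.5 and 49.3. Among all tested probe sets 20.7% were called higher and 18.7% lower (limma, adjusted p under 0.05). Each count of markers in this paragraph is to be read beside these shares. Of 13 gland markers listed, 12 had a probe set and were tested, and 8 were higher and 2, Sgs7 and fkh, lower in the Fkh-labelled arrays. Their brightness varied, from Sgs5 at 10031, 10417 and 10069 against 982 and 654 to ng2 at 50.3, 50.3 and 60.4 against 13.1 and 38.4. Arrays of the groups also differed in other respects. Actin probe sets at the 3' end read higher than those at the 5' end by a ratio of 4.94, 4.30 and 3.37 against 2.47 and 2.54. That ratio was 2.35, 1.81 and 1.68 against 1.53 and 1.55 for eIF-4a and 4.49, 2.41 and 4.51 against 2.32 and 1.2 for 18S rRNA. For Gapdh it was 1.56, 1.14 and 1.11 against 1.16 and 1.14, and the groups overlap. Summed intensity of the 6 fat body markers with a probe set was 11600.2 to 13034 against 21680 to 22832, and 3 of the 6 were called lower. For the 8 haemocyte markers the sums were 1515 to 2087 against 3612 to 3677, and 4 of 6 tested were lower. For the 5 midgut markers they were 127 to 166 against 118 to 205, and 0 of 2 tested were called by limma, 0 also at an unadjusted p under 0.05. For the 5 tracheal and epidermal markers they were 3308.5 to 3583 against 5275 to 5898, and 4 of 5 were lower. The 4 muscle markers summed to 114 to 147 against 154 to 158. No marker with a probe set read 0 in any array. The part of these differences in the results below was not tested.

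Most members of the family were dim. A probe set was tested when the mean of its log2(intensity + 16) over all arrays exceeded 5.62, the 40th percentile of all probe sets, which corresponds to an intensity of 33.2. Of the 24 mucin probe sets, 9 of 7 genes passed and 15 did not, which is 62.5% under the filter beside 40% of all probe sets. Of the 9 tested, 5 probe sets of 3 genes were higher in the Fkh-labelled arrays and 2 of 2 genes were lower (limma, adjusted p under 0.05), beside 20.7% higher and 18.7% lower among the 11261 probe sets tested and 39.4% called in all. Over all probe sets 2104 were lower, and 1222 and 1301 were without the first and the second control array. Rose and fell below mean higher and lower in the Fkh-labelled arrays past this threshold. A dim gene can pass the filter through the group in which it is high, so the count of 7 in 9 is only a description. Without any filter, 7 of the 24 were higher and 4 lower, beside 12.2% and 11.8% of all 18769 probe sets, or 23.9% in all. The median log2 fold was then 0.14 over the 24 and -0.03 over all probe sets.

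**Figure D1:**
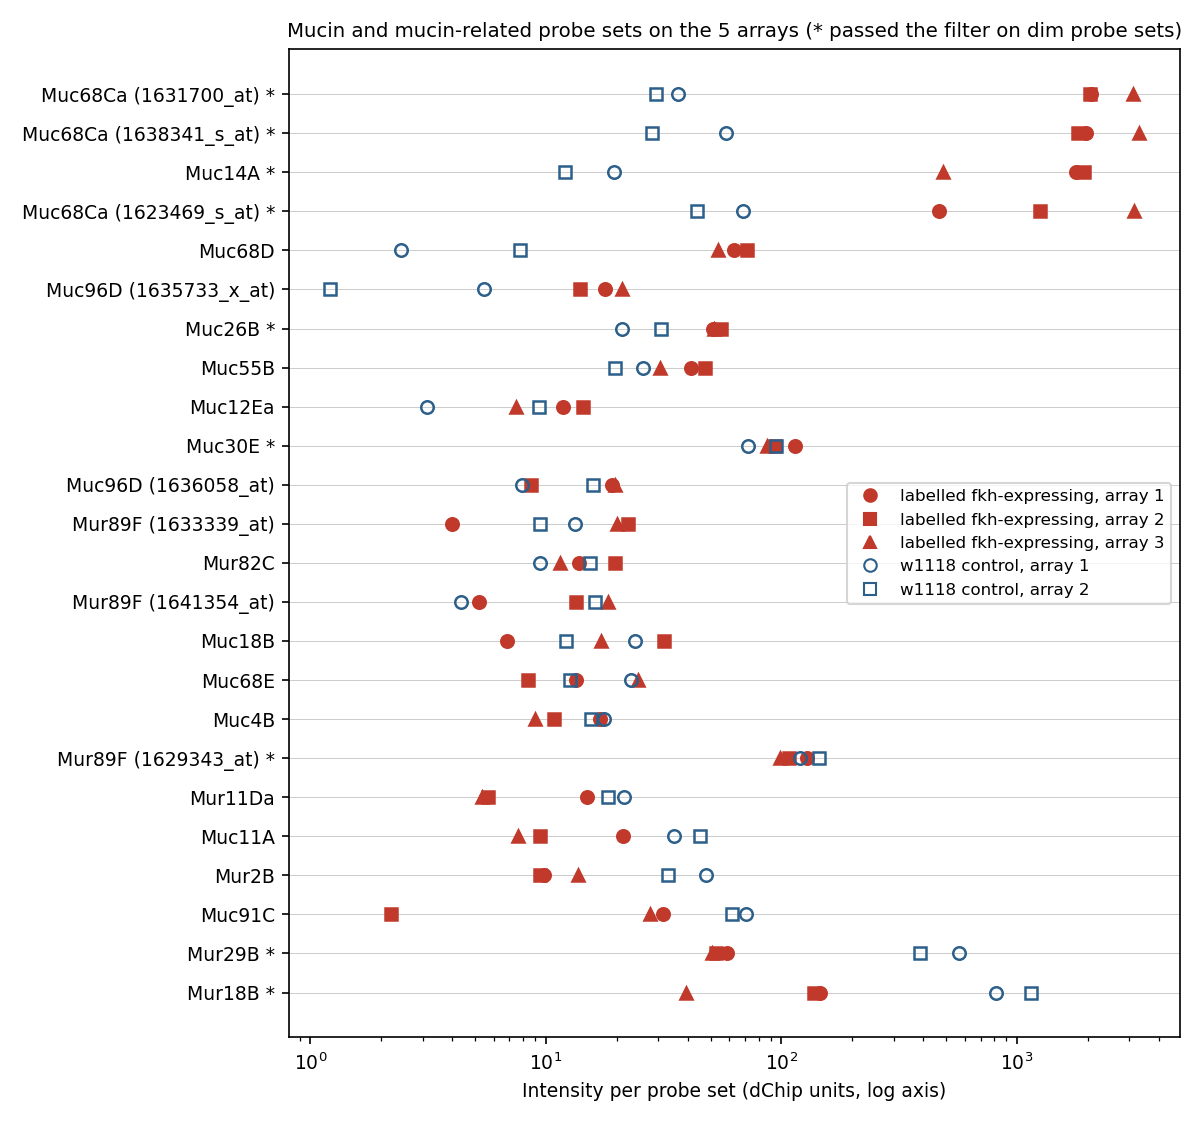
Intensity (log axis) of each of the 24 mucin probe sets on the 5 arrays, with filled red symbols for the Fkh-labelled arrays and open blue symbols for the controls, ordered by log2 fold. The probe sets of Muc68Ca and Muc14A lie at 466 or above in the Fkh-labelled arrays and at 68.9 or below in the controls, Mur18B and Mur29B lie the other way round, and most other probe sets stay under 100 in every array.

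Muc68Ca and Muc14A had the largest rises of the family, and which of them is first depends on the setting. The Muc68Ca probe set 1631700_at read 2069, 2037 and 3116 with the Fkh label against 36.4 and 29.3 in controls. The groups lie far apart, and the third Fkh-labelled array is the brightest. This gave a log2 fold of 5.61 ± 0.23 (SE) with 95% limits of 5.06 and 6.15 and an adjusted p of 1.5e-05 by limma, which ranks 35 among the rises of all tested probe sets. In these whole-gland extracts more RNA per cell and a larger share of cells with the transcript cannot be told apart. The second probe set, 1638341_s_at, read 1959, 1819 and 3305 against 58.3 and 28.3. It repeats the order of the arrays seen with the first, and its log2 fold was 5.32 ± 0.33 (SE; limma adjusted p = 5.6e-05).

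The remaining Muc68Ca probe set was far more variable. Probe set 1623469_s_at read 466, 1247 and 3125 in the Fkh-labelled arrays, a standard deviation of 1.35 on the log2 scale, larger than that of 99.9% of the tested probe sets. In the controls it read 68.9 and 43.7. All Fkh-labelled arrays lie above both controls, but they spread over a range that the other Muc68Ca probe sets do not show. Its log2 fold was 4.12 ± 0.70 (SE; limma adjusted p = 0.0043), 4.81 without the first Fkh-labelled array and 3.45 without the third. The suffix _s_at, which 1638341_s_at also carries, marks probe sets that can match several transcripts. The annotation gives Muc68Ca alone for both.

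Muc14A lies on the X chromosome. It read 1772, 1919 and 483 with the Fkh label against 19.4 and 12.1 in controls, where it was among the dim probe sets. The third Fkh-labelled array is the lowest of its group and still lies above both controls. This gave a log2 fold of 5.25 ± 0.57 (SE) with limits of 3.88 and 6.62 and an adjusted p of 0.00066 by limma. Both control values lie under the filter's intensity, so Muc14A passed it through the Fkh-labelled arrays. Without a filter the limma adjusted p was 0.0005. The size of the fold depends on the constant added before the logarithm, since the control values lie near that constant. It was 6.18 with a constant of 1 and 3.98 with 64. With a constant of 1 the Muc68Ca probe set 1631700_at had 6.13. Without the third Fkh-labelled array Muc14A had 5.88 and that probe set 5.41. The call was kept in each of 13 alternatives. Of the probe sets tested, 124, or 1.10%, were called higher with an estimated fold of at least 16 after the constant was added. All 3 Muc68Ca probe sets and Muc14A are among them. The call tests for any difference and not for one of that size.

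Muc26B rose slightly. Its intensities were 51.0, 55.4 and 51.7 with the Fkh label against 21.0 and 30.8 in controls, close to the filter. The groups do not overlap, and the Fkh-labelled arrays are nearly equal. Both control values lie under the filter's intensity, so Muc26B passed it through the Fkh-labelled arrays. The log2 fold was 0.72 ± 0.16 (SE; limma adjusted p = 0.014, and 0.03 without a filter). Without the first control array it was 0.55 and missed the threshold (limma adjusted p = 0.096), and it was under the filter when the third Fkh-labelled array was used alone and when the filter was set at the 60th percentile.

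Of the tested genes, 2 fell, Mur18B and Mur29B. Mur18B, on the X chromosome, read 146, 138 and 39.3 with the Fkh label against 817 and 1146 in controls. The third Fkh-labelled array lies farthest from the controls. This gave a log2 fold of -3.14 ± 0.48 (SE) with limits of -4.28 and -2.01 and an adjusted p of 0.0027 by limma. Mur29B read 58.7, 52.6 and 50.5 against 568 and 387. Here the Fkh-labelled arrays are close together and the controls are the more variable group. Its log2 fold was -2.80 ± 0.20 (SE), between limits of -3.27 and -2.32 (limma adjusted p = 9.8e-05). These falls rank 94 and 140 among those of all tested probe sets. Of all tested probe sets, 311, or 2.76%, were called lower with an estimated fold of at least 4 after the constant was added.

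**Figure D2:**
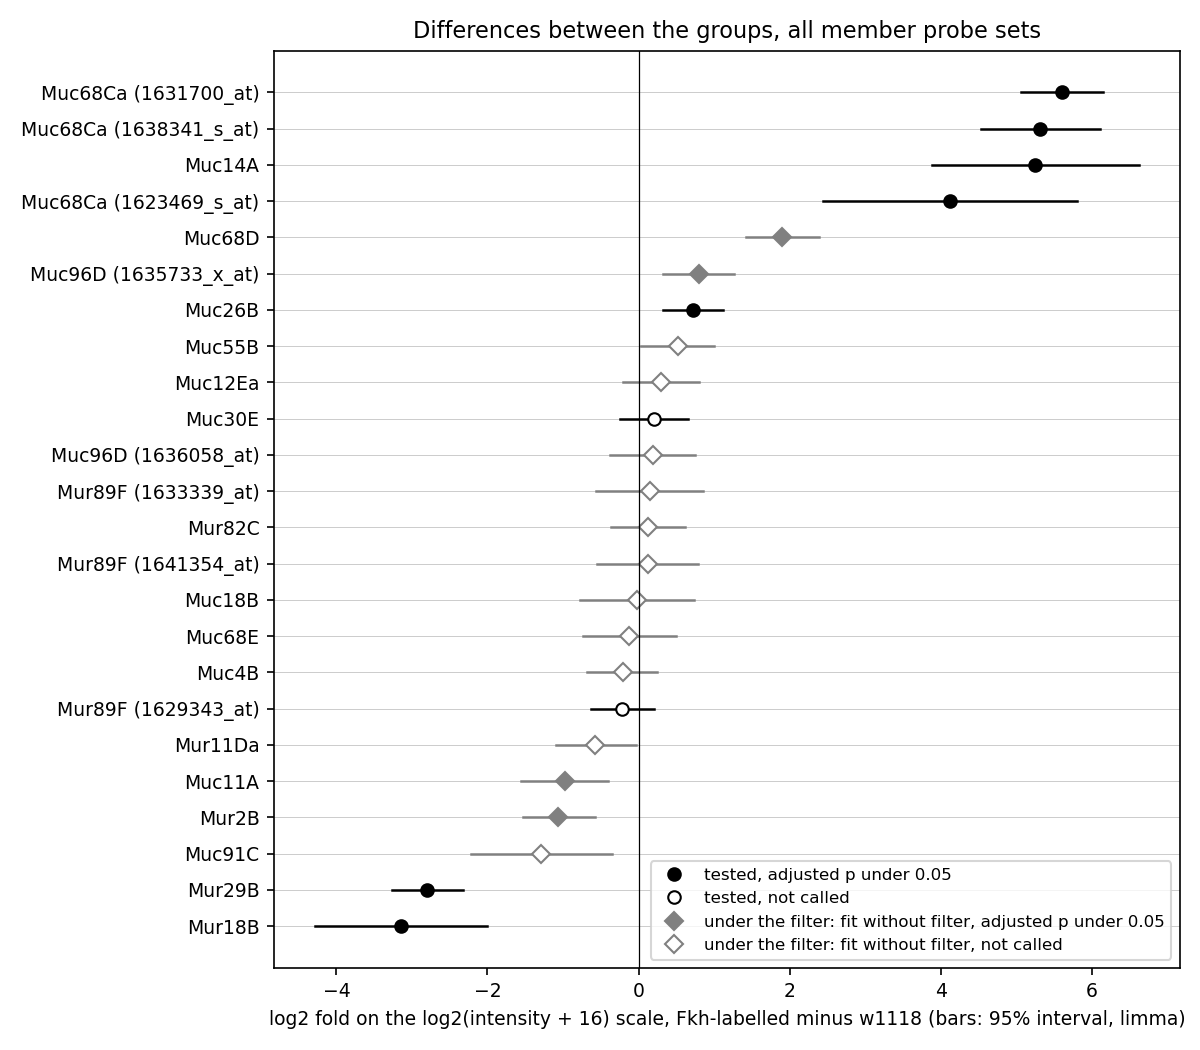
Log2 folds of the 24 probe sets with 95% intervals from limma; black circles passed the filter, grey diamonds are from the fit without a filter, and filled symbols have an adjusted p under 0.05. The rises of Muc68Ca and Muc14A, from 4.12 to 5.61, stand far from the other members, whose values run from -3.14 to 1.90.

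Muc30E and the brightest Mur89F probe set were measured above the filter and were not called. Muc30E read 114, 94.0 and 86.5 with the Fkh label against 72.1 and 94.8 in controls, and the groups overlap. Its log2 fold of 0.20 had an interval of -0.24 to 0.65 (limma adjusted p = 0.42). Mur89F probe set 1629343_at read 128, 108 and 98.9 against 120 and 145, with overlapping groups, a log2 fold of -0.22 and an interval of -0.63 to 0.20 (limma adjusted p = 0.36). These intervals leave room for small changes in either direction and do not reach the sizes of the changes of Muc68Ca, Muc14A, Mur18B and Mur29B. The other Mur89F probe sets, 1633339_at and 1641354_at, were under the filter, with intensities of at most 22.4 in any array.

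Muc68D stood out among the members under the filter. It read 62.9, 71.4 and 53.6 with the Fkh label against 2.43 and 7.76 in controls. The groups do not overlap, and the control values are so low that the size of the difference is poorly fixed. In the fit without a filter its log2 fold was 1.90 ± 0.21 (SE; limma adjusted p = 0.00059). It also passed the filter with a constant of 64 (log2 fold 0.87) and without the first or the second control array (1.72 and 2.09). Passing there depends on its own values, so these folds are only a description. Muc96D was called in that fit at probe set 1635733_x_at (log2 fold 0.80, limma adjusted p = 0.025), with 17.8, 14.0 and 21.0 against 5.46 and 1.21. Its other probe set had a log2 fold of 0.19 (adjusted p = 0.63), with overlapping groups. The suffix _x_at marks probe sets that may bind unrelated transcripts.

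Lower dim members were Mur2B and Muc11A. Mur2B read 9.77, 9.39 and 13.7 with the Fkh label against 47.8 and 32.9 in controls, a log2 fold of -1.06 without a filter (limma adjusted p = 0.0083). Muc11A read 21.2, 9.40 and 7.62 against 34.8 and 45.1, with -0.98 (limma adjusted p = 0.025). The groups do not overlap for either gene. Muc91C read 31.4, 2.20 and 27.7 against 70.6 and 61.4, also without overlap. Its log2 fold of -1.29 missed the threshold in the fit without a filter (limma adjusted p = 0.054). Muc91C passed the filter in 3 other alternatives. Passing depends on its own values, so these results are only a description. Its log2 fold was -0.64 with a constant of 64 (limma adjusted p = 0.029). With the second, lowest Fkh-labelled array left out it was -0.85 (limma adjusted p = 0.020), and with the third used alone -0.91.

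The other members under the filter gave no call. Counting Muc91C, 11 probe sets of 10 genes had log2 folds from -1.29 to 0.52 and adjusted p from 0.054 to 0.97 in the fit without a filter. Muc55B had the highest value, 0.52 (limma adjusted p = 0.12), with 41.2, 47.3 and 30.6 against 25.9 and 19.6. The groups do not overlap for Muc55B. Mur11Da had -0.57 (limma adjusted p = 0.11), with 15, 5.68 and 5.33 against 21.5 and 18.4. Muc4B, Muc12Ea, Muc18B, Muc68E and Mur82C had values from -0.21 (Muc4B) to 0.30 (Muc12Ea) and overlapping groups. The 11 probe sets read between 2.20 and 70.6 in every array, a range in which the added constant compresses differences. Over the family, all Fkh-labelled arrays lay above both controls for 8 probe sets and below for 6, and the groups overlapped for 10. Among all probe sets, 52.3% did not overlap, 24.6% above and 27.6% below.

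The third Fkh-labelled array differed from the first and second at several of the called members, and not in one direction. Its log2 value minus their mean was 0.60, 0.80 and 2.01 at the Muc68Ca probe sets 1631700_at, 1638341_s_at and 1623469_s_at. At Muc14A it was -1.90 and at Mur18B -1.51. Muc26B and Mur29B had -0.03 and -0.11. Over all tested probe sets, 95% of these values lay between -0.92 and 0.80, with a median of -0.04. The highest and the lowest of the family thus lie outside the bulk of all probe sets. Against both controls, the third array alone gave log2 folds of 6.01, 5.86 and 5.46 for Muc68Ca, 3.98 for Muc14A, -4.15 for Mur18B and -2.87 for Mur29B. In that comparison the lone array is assumed to vary like the other group, and all 6 probe sets were called.

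**Figure D3:**
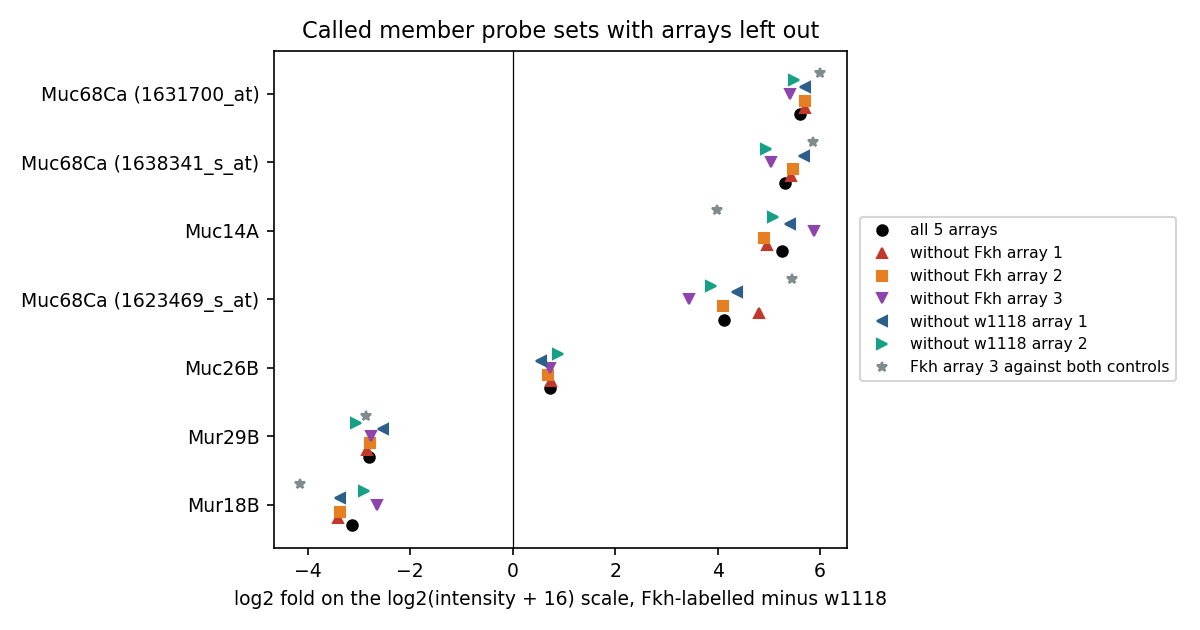
Log2 folds of the 7 called mucin probe sets with all 5 arrays, with each array left out, and with the third Fkh-labelled array alone against both controls (Muc26B was not tested there). Every point keeps its direction; Muc68Ca probe set 1623469_s_at moves the most, from 3.45 to 5.46.

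Mur18B and Muc18B are a pair of members adjacent on the X chromosome, with 0 protein-coding genes between them in the RefSeq gene table. Mur18B fell from 982 ± 233 (SD, n = 2) to 108 ± 59.4 (SD, n = 3), whereas Muc18B read 6.84, 31.8 and 17.2 against 23.9 and 12.2 and stayed under the filter. The gene on the other side of Muc18B, CG7884, read 16.7, 10.6 and 20.3 against 575 and 906, a log2 fold of -4.55 (limma adjusted p = 3.1e-05). CG14195, on the other side of Mur18B, rose by 0.70 (limma adjusted p = 0.031). The stretch thus holds a rise, a dim gene and a pair of falls.

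Genes near the other called members also varied. CG12698, the gene before Muc14A, read 3038, 3089 and 1634 against 137 and 34.5, and it repeats the order of the Fkh-labelled arrays seen at Muc14A. Its log2 fold was 4.83 ± 0.50 (SE; limma adjusted p = 0.00052). CG12395, after Muc14A, rose by 1.03 ± 0.34 (SE), just past the threshold. CG13991, before Muc26B, had -0.02 (adjusted p = 0.94). CG7778, before Mur29B, fell by 1.95 (limma adjusted p = 0.0068), and CG7627, after it, had -0.13 (adjusted p = 0.57). On each side of Muc68Ca, 1 protein-coding gene with no probe set of its own was passed over. The nearest measured genes, Duba and CG6083, had log2 folds of -0.63 and 0.97 (limma adjusted p = 0.027 and 0.0028). Muc68Ca shares its chromosome arm, 3L, with the glue gene Sgs3, and 23 protein-coding genes lie between them in the table. Over the whole family, 36 neighbouring genes outside it had a probe set of their own. Of these, 21 were tested, and 6 rose and 6 fell, which is 57.1% beside 39.4% of all probe sets. The neighbours were chosen only by position.

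**Figure D4:**
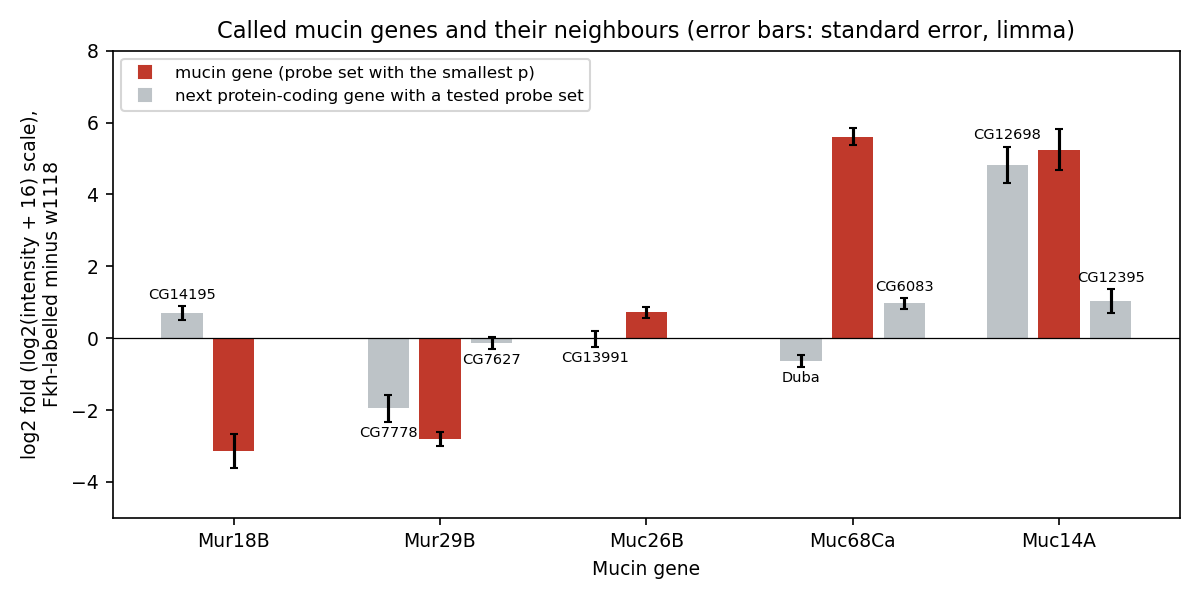
Log2 folds (bars, with standard errors) of the 5 mucin genes with a called probe set in red and of the nearest protein-coding genes with a probe set, where it was tested, in grey. CG12698 at 4.83 is close to Muc14A at 5.25, and CG7778 at -1.95 is lower as Mur29B is, whereas the nearest measured genes on either side of Muc68Ca stand at -0.63 and 0.97.

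Enzymes that attach sugars to serine and threonine, or to sugars already attached, were measured with a list of O-glycosylation genes. Of 15 tested, 9 rose and 5 fell, beside 20.7% and 18.7% of all tested probe sets. The median log2 fold was 1.08 beside -0.01 over all. The list is wider than mucin glycosylation: among the rises are sxc (1.08), which modifies nuclear and cytosolic proteins, and rumi (0.70), which adds glucose to repeats of receptors such as Notch. Pgant9 and Pgant6, members of the family that adds the first N-acetylgalactosamine, rose by 3.27 and 2.71 (limma adjusted p = 2.6e-05 and 7.5e-05). GlcAT-P, a glucuronyltransferase, rose by 3.21 (limma adjusted p = 0.00023). The largest fall was that of Pgant4, another enzyme of the first step, at -3.51 (limma adjusted p = 3.5e-05). C1GalTA, which adds galactose in the next step, had -2.80 (limma adjusted p = 0.00026). Rises and falls thus occurred within the same enzyme family, as they did among the mucins.

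Other secreted proteins gave a different mixture. Beside the same 20.7% and 18.7%, 9 of 12 glue and new glue genes rose and 1 fell (median log2 fold 3.03). This list shares Sgs3, Sgs4, Sgs5, Sgs7, Sgs8, ng1, ng2 and ng3 with the gland markers given above, so the counts are not separate results. The 19 tested genes of chitin-binding and chitinase-like proteins, many of them cuticle and tracheal proteins, had 2 rises and 8 falls beside the same shares, with a median of -0.21. Among them Idgf1, a chitinase-like secreted protein, rose by 2.51, whereas verm, a chitin deacetylase-like protein of the trachea, and Tb, a cuticle protein, had -1.60 and -1.28 (limma adjusted p = 0.00015, 0.0017 and 0.0018). Idgf4, another Idgf gene, had -1.21 (limma adjusted p = 0.0014), and the other rise was that of obst-H, by 0.76 (limma adjusted p = 0.013). The falls of verm and Tb stand beside the lower tracheal and epidermal markers given above, a list that shares verm, serp and Gasp with this one. Of 7 tested genes linked to secretory granules, 2 rose (Cals and Mon1, by 0.98 and 0.71) and Rab26 fell by 0.63, beside 39.4% called over all probe sets.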

How the data were processed

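Total RNA of dissected glands, isolated with TRIzol and an RNeasy column, was labelled as biotin cRNA and hybridised to Affymetrix 1-colour arrays, per the labels' protocols. The authors deposited 1 linear intensity for each probe set, computed in dChip after scaling every array to a baseline array whose median intensity was 134, according to the design text of the series. The dChip version, model and background step are not given in the labels or the design text. The table holds 18952 probe sets, and 183 controls were left out. Gene symbols came from the platform annotation. All 19 mucin symbols matched the RefSeq gene table (Release 6 plus ISO1 MT), which was used only for names and gene order. Values were taken as log2(intensity + 16), which understates the change of dim genes, and the groups were compared by limma's moderated two-sided test (limma 3.58.1, R 4.3.3), which had 3 residual degrees of freedom and added 3.63 from the prior. P-values were adjusted after Benjamini and Hochberg across 11261 probe sets. Standard errors and 95% intervals are limma's. The number of arrays limits the precision. A gene outside the family was represented by its probe set of highest mean. All member probe sets are named, and of the other lists up to 3 called genes in each direction by size. Neighbours were added after the data were seen. The members, lists and settings were chosen with earlier results of these data known. The code was run on simulated arrays with known changes in a small share of probe sets and the same spread for all. That setting differs from these data, so the run checks the code and not the calls. Figures were drawn with matplotlib 3.10.9.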

Additional observations from a re-analysis of the deposited data

How the results depend on the processing

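The 9 tested mucin probe sets, 7 called and 2 not, were recomputed under 13 alternatives. These altered the added constant, the dim-probe filter, normalization, variance modelling, the replicate numbers or the set of arrays. A probe set that was not called kept its side of the threshold when it stayed uncalled. Of 115 values for single probe sets, 114 kept their direction and their side of the threshold, 0 reversed, and 1 lost its call (Muc26B without the first control array, adjusted p = 0.096). The numbers of mucin probe sets higher and lower were 5 and 2, and with each array left out they ranged from 5 to 6 and from 2 to 3. Without a filter they were 7 and 4, over 24 probe sets, with the filter at the 60th percentile 4 and 2, 6 and 3 with a constant of 64, and with array 3 of the Fkh group alone 4 and 3. The median log2 fold of tested mucin probe sets, 0.72, was 2.16 with the filter at the 60th percentile, which tests 8, and 0.054 when only array 3 of the Fkh group was kept, an alternative added after the data were seen. It ranged from 0.46 to 0.89 with each array left out and describes few probe sets of opposite direction. Over all genes, the third array alone gave 1337 probe sets higher and 1397 lower, and leaving out each array gave 1598 to 2581 higher and 1222 to 2309 lower, with the lowest number of falls, 1222 and 1301, without the first and the second control array. With fewer arrays the test has fewer degrees of freedom. With the replicate number as a block, 5 mucin probe sets were higher and 2 lower, with a median of 0.73, beside 2350 and 2019 of all. No control array carries the number of the third Fkh-labelled array, so in that fit this array adds nothing to the group difference. The log2 folds with the block therefore equal those with the third Fkh-labelled array left out and are not a separate check of them. The replicate numbers are shared by only 2 pairs of arrays, whose deviations from the group means correlated at 0.08 and -0.11, so they do not show a pairing. Dim probe sets have no detection call here, and those under the filter carry little information on change.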
